A study of Mus musculus with 8 samples.

Results

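The 42 genes described here serve DNA double-strand break repair, mismatch repair and their neighbouring pathways, and were taken from the array by the gene name that the scanner files give each probe. All 42 were on the array, with 56 probes for them, and all 42 were measured well enough to test, out of 17977 genes tested and 30175 gene names in all. They fall into damage signalling (8 genes), homologous recombination (15), the Fanconi pathway (7), end joining (5), mismatch repair (2) and single-strand break and base excision repair (5).

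The data are 8 one-colour Agilent arrays of RNA from feeder-free E14 mouse embryonic stem cells (ESCs), infected with lentiviruses that carry short hairpin RNAs and collected 72 hours after infection. There were 4 groups of 2 arrays, replicates A and B: control knockdown (KD) with a hairpin against EGFP, a gene these cells lack, Tip60 KD, Hdac6 KD, and double KD with hairpins against both. Every group, the control included, carried a hairpin virus, and 1 hairpin was used for each target, so an effect of a hairpin cannot be told apart from that of its target. Tip60 (gene Kat5) is the acetyltransferase of the Tip60-p400 chromatin remodelling complex, and Hdac6 is a deacetylase that binds this complex in ESCs. The design asks which mRNAs depend on Tip60, which on Hdac6, and whether losing both adds up.

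Double-strand breaks are sensed by the MRN complex (Mre11a, Rad50, Nbn) and by the Ku dimer (Xrcc5, Xrcc6), which lead towards homologous recombination and end joining. The kinases Atm and Atr spread the signal along chromatin, where Mdc1 and the ubiquitin ligases Rnf8 and Rnf168 hold repair factors at the break. Tip60 itself acetylates histones and Atm at breaks, and ESCs rely heavily on homologous recombination and on mismatch repair.

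Levels are given as log2 of the processed signal divided by the array's 75th percentile, so 0 is the level of that percentile and 1 unit is a 2-fold change. A gene is named called, higher or lower where the Benjamini-Hochberg adjusted p from limma, over all 17977 genes, was under 0.1. Levels of different genes come from different probes and are not set against each other. The 2 arrays of a group were biological replicates by the study's methods, replicate A of every group lay on 1 slide and replicate B on another, and each group held the same position on both slides, so position and group cannot be told apart. A second fit took the slide as a replicate block and so compared groups within slides. It ended none of the members' calls and added some, and where a p is printed for a change called in that fit alone, its adjusted p stands beside it, named as that with the block.

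The targeted genes came out in the direction of their labels. Kat5 read 1.25 and 1.30 with the control hairpin, -0.098 and -0.085 with Tip60 depleted, 1.43 and 1.44 with Hdac6 depleted and -0.19 and 0.12 with both depleted. It stood at 38.7% of control in Tip60 KD (-1.37, SE 0.11, adjusted p = 0.00107) and at 40.2% in double KD. Hdac6 read 2.13 and 2.10 (control KD), 1.65 and 1.68 (Tip60 KD), -0.37 and -0.40 (Hdac6 KD) and 0.21 and 0.26 (double KD). It stood at 17.7% of control in Hdac6 KD and 27.2% in double KD, and was also lower in Tip60 KD (-0.45, adjusted p = 0.00502). All 10 ESC markers were measured, with summed signals of 307 to 339 times the 75th percentile over the 8 arrays (the Tip60 KD A sum lacks Nanog and Tdgf1, whose spots were set aside as outliers). Single ESC markers did change. In Tip60 KD 5 of the 10 were called, 3 higher and 2 lower, beside 40.4% of all genes. The changes of the 10 in Tip60 KD ran from -0.53 to 0.99. In Hdac6 KD 3 were called (2 higher and 1 lower) and in double KD 4 (3 higher and 1 lower), beside 30.0% and 33.7%. Of markers of other cells, Gata6, Sox7, Afp, Dab2, Cdx2, Hand1, Elf5, Col1a2, Postn and Dcn did not pass the filter on dim probes. The sums that follow take in the markers that did not pass as well. The 7 fibroblast markers summed to 2.77 to 3.06 in control KD and 3.26 to 3.72 in Tip60 KD. In Hdac6 KD they gave 2.45 to 2.57 and in double KD 3.34 to 3.62. The 7 extraembryonic endoderm markers summed to 4.29 to 4.50 in control KD and 4.67 to 4.97 in Tip60 KD. In Hdac6 KD they gave 4.57 to 4.68 and in double KD 5.04 to 5.79. The 5 trophectoderm markers summed to 0.961 to 1.56 in control KD and 1.09 to 1.16 in Tip60 KD. In Hdac6 KD they gave 0.893 to 0.956 and in double KD 0.933 to 0.995. The 6 neural markers summed to 2.34 to 2.64 in control KD and 4.28 to 4.66 in Tip60 KD, and Tubb3 was the called one (1.94). The 21 S phase genes (19 tested) summed to 274 to 283 in control KD and 233 to 239 in Tip60 KD. In Hdac6 KD they gave 265 to 271 and in double KD 250 to 253. The part of these shifts in the results below was not tested. Between 50.9% and 94.4% of spots were well above background, and 0 spots were saturated. The control array had the fewest such spots on each slide, 72.5% for control KD A and 50.9% for control KD B. The median background subtracted was also highest on these arrays within their slides (61.0 and 114). The part of this in the changes of dim probes was not tested.

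Promoter sequence is shown for the genes that fell most in Tip60 KD (Mdc1, Xrcc6, Bard1), for the one that rose most (Fancm) and for Chek2, which rose and whose window holds E2F-type letters like those of the first set. The 250 bases before the transcription start come from RefSeq (GRCm38.p6), 5′ to 3′ on the gene's strand, and 34 of the 42 members had an entry. Capitals mark the E2F-type letters TTTCCCGC, TTTCGCGC, TTTGCCGC or TTTGGCGC, the letters CCAAT, and the NRF1 core CGCATGCG, each on either strand.
Mdc1, chr17:35841248-35841497 (+ strand): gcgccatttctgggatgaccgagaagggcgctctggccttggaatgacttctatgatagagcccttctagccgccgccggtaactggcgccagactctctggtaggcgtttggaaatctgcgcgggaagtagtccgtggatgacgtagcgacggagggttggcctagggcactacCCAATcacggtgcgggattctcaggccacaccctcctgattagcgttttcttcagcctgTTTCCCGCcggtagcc
Xrcc6, chr15:82016119-82016368 (+ strand): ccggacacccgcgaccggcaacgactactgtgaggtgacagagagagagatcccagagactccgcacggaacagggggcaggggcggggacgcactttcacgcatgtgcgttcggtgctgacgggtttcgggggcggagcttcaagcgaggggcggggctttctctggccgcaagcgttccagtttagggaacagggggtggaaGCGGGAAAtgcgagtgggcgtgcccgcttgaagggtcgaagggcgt
Bard1, chr1:71102973-71103222 (- strand): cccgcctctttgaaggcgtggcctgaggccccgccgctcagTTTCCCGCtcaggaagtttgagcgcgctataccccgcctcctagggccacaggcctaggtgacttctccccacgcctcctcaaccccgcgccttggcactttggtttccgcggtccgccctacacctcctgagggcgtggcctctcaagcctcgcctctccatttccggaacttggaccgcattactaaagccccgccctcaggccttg
Chek2, chr5:110839733-110839982 (+ strand): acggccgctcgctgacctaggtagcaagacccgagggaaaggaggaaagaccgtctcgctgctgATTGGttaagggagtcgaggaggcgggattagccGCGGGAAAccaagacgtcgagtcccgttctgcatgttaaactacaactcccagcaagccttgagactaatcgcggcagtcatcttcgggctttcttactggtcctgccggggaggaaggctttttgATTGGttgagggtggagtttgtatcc
Fancm, chr12:65075353-65075602 (+ strand): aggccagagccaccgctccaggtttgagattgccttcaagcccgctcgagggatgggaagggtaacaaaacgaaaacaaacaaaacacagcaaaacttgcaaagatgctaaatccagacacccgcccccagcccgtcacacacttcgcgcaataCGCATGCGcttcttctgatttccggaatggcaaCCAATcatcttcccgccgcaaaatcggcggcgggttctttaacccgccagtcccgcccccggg

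An E2F-type match lay in the windows of Mdc1 (position -16 from the start), Xrcc6 (-46), Bard1 (-209), Chek2 (-152) and Brca2. These are 5 of 34 members, against 1.91% of the windows of the 27025 genes in the table. Of the members lower in Tip60 KD that had an entry, 3 of 8 held one, of those higher 1 of 4, and of those not called 1 of 22. The shares among all genes by their call in Tip60 KD were not counted. This split is thus not read as a trait of the members. CCAAT was in 17 of 34 members and 34.5% of all windows, and the NRF1 core in Lig4 and Fancm and 1.58% of all windows. The E-box CACGTG was in Parp1, Parp2, Xrcc5 and Lig3 and 6.05% of all windows. The Sp1 letters GGGCGG, which can share bases with the E2F-type letters, were in 22 members and 32.9% of all windows, and the Ets letters CCGGAAG were in 4 members and 7.05%. A match is a description of letters and says nothing of binding in these cells.

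In Tip60 KD, 16 of the 42 genes were called, 7 higher and 9 lower, which is 38.1% of them beside 40.4% of all genes (19.1% higher and 21.3% lower). The share called was thus near that of all genes. In RNA from whole cultures, fewer cells of a type and less RNA per cell cannot be told apart. Their median change was -0.051, beside 0.050 over all genes. With the replicate block, 25 members were called beside 60.4% of all genes. The 9 it added were Atm, Trp53bp1, Rnf8, Brca1, Wrn and Lig4, which were higher, and Rnf168, Xrcc2 and Lig3, which were lower, with changes of 0.13 to 0.37 in size. Within slide 1 (the A arrays) and slide 2 (the B arrays) the Tip60 KD change was -1.80 and -1.75 for Mdc1, -1.20 and -1.12 for Xrcc6, -0.92 and -0.81 for Bard1 and 1.11 and 0.86 for Fancm. The members did not move as one: in each pathway with more than 2 genes, some rose, some fell and some were not called.

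**Figure D1:**
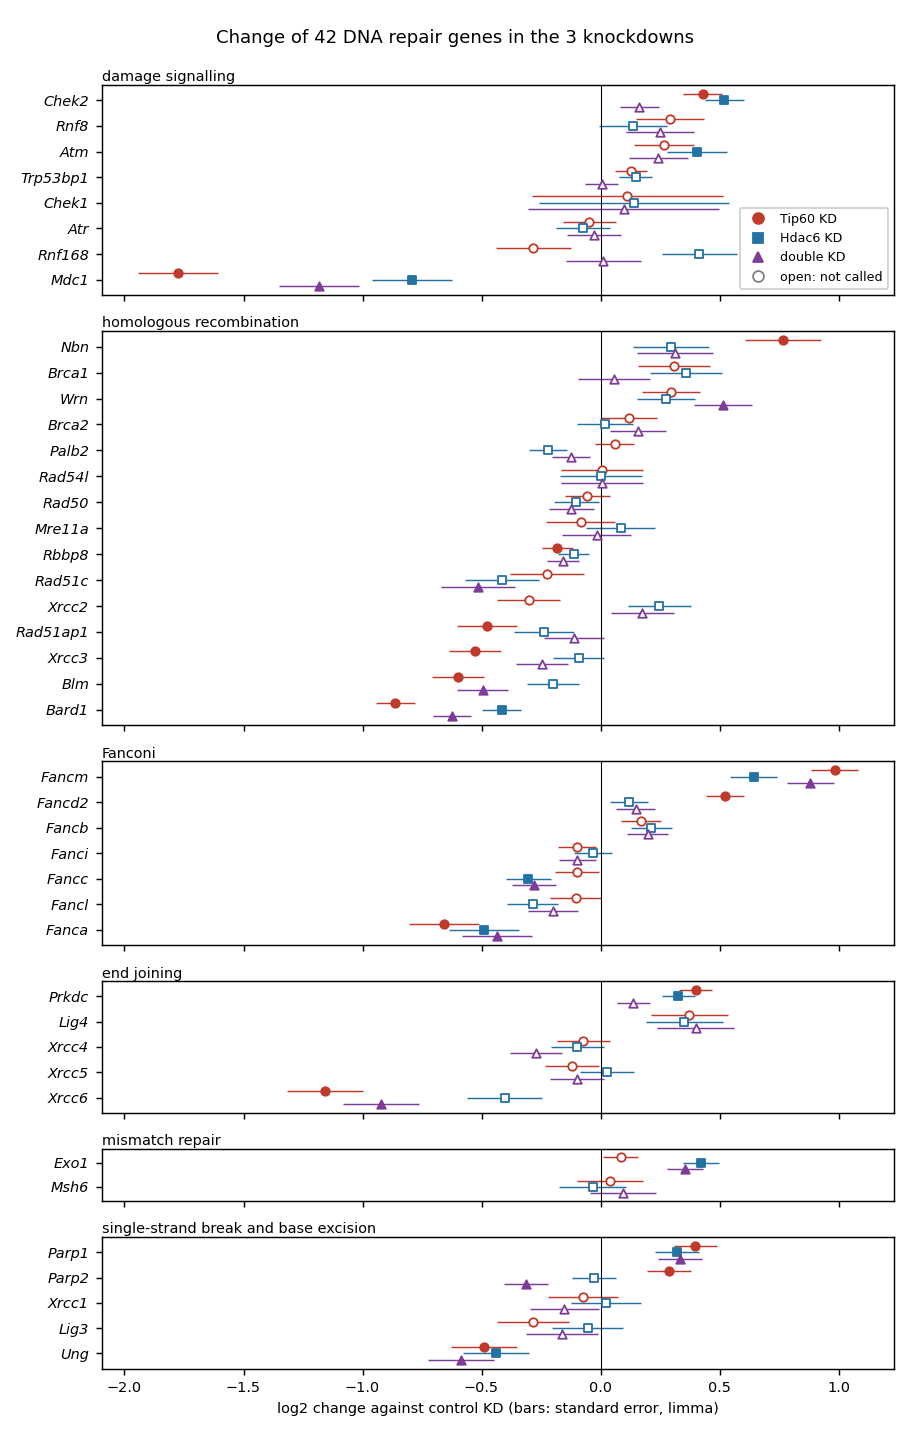
Log2 change against control KD of the 42 repair genes by pathway in Tip60 KD (circles), Hdac6 KD (squares) and double KD (triangles), with limma standard errors and filled marks where the adjusted p was under 0.1. Mdc1, Xrcc6 and Bard1 lay furthest left and Fancm furthest right, with the Tip60 KD mark the outermost in each.

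Among the damage signalling genes, Mdc1, the scaffold that binds phosphorylated H2AX at breaks, changed most of all 42. It read 2.80 and 2.73 with the control hairpin, 1.01 and 0.98 with Tip60 depleted, 2.16 and 1.79 with Hdac6 depleted and 1.77 and 1.40 with both depleted (probe at chr17:35996478-35996537, mm9, the build of all probe positions here). The 4 groups did not overlap, in the order control, Hdac6, double and Tip60 KD, although the lowest Hdac6 KD and highest double KD arrays were nearly level. The change was -1.78 ± 0.17 (SE, adjusted p = 0.00139) in Tip60 KD, a 3.42-fold lower level. In Hdac6 KD it was -0.79 ± 0.17 (SE, adjusted p = 0.0244), and in double KD -1.18 ± 0.17 (SE, adjusted p = 0.00639). Mdc1 and Xrcc6 were the members called and at least 2-fold lower in Tip60 KD, as were 2.51% of all genes. In double KD Mdc1 was the one such member, beside 1.17% of all genes.

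Chek2, a checkpoint kinase downstream of Atm, was the called riser of this group in Tip60 KD. It read 0.86 and 0.93 (control KD), 1.29 and 1.36 (Tip60 KD), 1.34 and 1.49 (Hdac6 KD) and 1.06 and 1.06 (double KD). Both single KDs lay above the 2 other groups, and double KD stood between them and the control. The change was 0.43 ± 0.081 (SE, adjusted p = 0.0111) in Tip60 KD and 0.52 ± 0.081 (SE, adjusted p = 0.0102) in Hdac6 KD, while double KD gave 0.16 (adjusted p = 0.214, 0.0692 with the block). Atm, the kinase at the head of this branch, read -0.56 and -0.88 with the control hairpin, -0.41 and -0.50 with Tip60 depleted, -0.25 and -0.38 with Hdac6 depleted and -0.45 and -0.51 with both depleted. All KD arrays lay above both control arrays. Hdac6 KD was called (0.41, SE 0.13, adjusted p = 0.0713), a call kept in 6 of 17 other settings. The Atm change was 0.27 (adjusted p = 0.168, 0.0358 with the block) in Tip60 KD and 0.24 (adjusted p = 0.226, 0.0533 with the block) in double KD. A second, dimmer Atm probe 10296 bases away was higher in all 3 KDs, with changes of 0.98, 0.72 and 0.75 in Tip60, Hdac6 and double KD (adjusted p over probes 0.00343, 0.0156 and 0.0116). This probe read -2.47 and -2.78 in control KD, the latter at the floor of -2.78, so the size of these changes depends on the floor.

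Atr, the sister kinase for single-stranded DNA, was not called in any KD by its brightest probe, with -0.075 (adjusted p = 0.718) in Hdac6 KD. Trp53bp1, which steers breaks to end joining, gave 0.13 (adjusted p = 0.227, 0.0994 with the block) in Tip60 KD and 0.15 (adjusted p = 0.197, 0.0765 with the block) in Hdac6 KD. Rnf8 gave 0.29 (adjusted p = 0.187, 0.00683 with the block) in Tip60 KD and 0.25 (adjusted p = 0.275, 0.0138 with the block) in double KD. Rnf168, which amplifies the ubiquitin mark that Rnf8 starts, read 0.22 and 0.027 (control KD), 0.014 and -0.33 (Tip60 KD), 0.64 and 0.43 (Hdac6 KD) and 0.23 and 0.038 (double KD). Both Tip60 KD arrays lay below and both Hdac6 KD arrays above the control arrays of Rnf168. Against control it gave -0.28 (adjusted p = 0.240, 0.0130 with the block) in Tip60 KD and 0.41 (adjusted p = 0.122, 0.00473 with the block) in Hdac6 KD, and Tip60 KD was below Hdac6 KD in the fit without the block as well (-0.70, SE 0.16, adjusted p = 0.0341). Chek1, the checkpoint kinase downstream of Atr, read -2.24 and -1.50 with the control hairpin, -2.12 and -1.39 with Tip60 depleted, -2.02 and -1.44 with Hdac6 depleted and -2.09 and -1.45 with both depleted. Its B arrays stood above its A arrays in all 4 groups, and the KDs gave 0.098 to 0.14 with an SE of 0.40 in the fit without the block.

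Of the 15 homologous recombination genes, 6 were called in Tip60 KD, 1 higher and 5 lower, which is 40.0% of them beside the 40.4% of all genes. Bard1, the partner of Brca1 in its ubiquitin ligase, read 2.53 and 2.41 with the control hairpin, 1.61 and 1.60 with Tip60 depleted, 2.08 and 2.03 with Hdac6 depleted and 1.90 and 1.79 with both depleted (probe at chr1:71074294-71074353). No groups overlapped, and the order was that of Mdc1: control, Hdac6, double and Tip60 KD. The change was -0.86 ± 0.082 (SE, adjusted p = 0.00139) in Tip60 KD, -0.41 ± 0.082 (SE, adjusted p = 0.0195) in Hdac6 KD and -0.62 ± 0.082 (SE, adjusted p = 0.00526) in double KD. Averaging the gene's 3 probes ended the call in all 3 KDs, since the probes disagreed as described with the plot of several probes. Brca1 itself read -1.06 and -1.36 (control KD), -0.82 and -0.98 (Tip60 KD), -0.70 and -0.995 (Hdac6 KD) and -1.08 and -1.22 (double KD), with 0.31 (adjusted p = 0.185, 0.0123 with the block) in Tip60 KD and 0.36 (adjusted p = 0.156, 0.00956 with the block) in Hdac6 KD.

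Blm, a helicase of recombination, read 2.69 and 2.79 with the control hairpin, 2.12 and 2.17 with Tip60 depleted, 2.45 and 2.63 with Hdac6 depleted and 2.14 and 2.35 with both depleted. Tip60 and double KD overlapped each other and lay below the other groups. It was lower in Tip60 KD (-0.60, SE 0.11, adjusted p = 0.00959) and double KD (-0.50, SE 0.11, adjusted p = 0.0237), with -0.20 (adjusted p = 0.264, 0.0504 with the block) in Hdac6 KD. Xrcc3, which acts in strand exchange, read -0.50 and -0.39 (control KD), -0.94 and -1.01 (Tip60 KD), -0.43 and -0.65 (Hdac6 KD) and -0.61 and -0.77 (double KD). Hdac6 KD overlapped the control here, and Tip60 KD was lower (-0.53, SE 0.11, adjusted p = 0.0150). Rad51ap1, which helps strands pair, read 1.48 and 1.40 with the control hairpin, 1.04 and 0.90 with Tip60 depleted, 1.24 and 1.18 with Hdac6 depleted and 1.50 and 1.17 with both depleted. Tip60 KD was again the lowest group (-0.48, SE 0.13, adjusted p = 0.0337), while double KD overlapped the control. Rbbp8, which starts end resection, gave -0.18 ± 0.066 (SE, adjusted p = 0.0905), a call kept in 4 of 17 other settings and in 0 of the 8 fits that left out an array.

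Nbn, the MRN subunit that recruits Atm, moved the other way and read -0.42 and -0.61 (control KD), 0.38 and 0.12 (Tip60 KD), -0.082 and -0.36 (Hdac6 KD) and -0.067 and -0.34 (double KD) (probe at chr4:15906456-15906515). Tip60 KD stood above all other arrays, and the Hdac6 and double KD arrays overlapped each other. The change was 0.77 ± 0.16 (SE, adjusted p = 0.0155) in Tip60 KD, with 0.30 (adjusted p = 0.263, 0.00867 with the block) in Hdac6 KD and 0.31 (adjusted p = 0.222, 0.00645 with the block) in double KD. The other MRN subunits were not called: Rad50 gave -0.055 (adjusted p = 0.727) and Mre11a -0.084 (adjusted p = 0.731) in Tip60 KD. Brca2, a central recombination mediator, gave 0.12 (adjusted p = 0.516), and Palb2, which ties Brca2 to Brca1, gave 0.059 (adjusted p = 0.653).

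Some members of this group were called in a single KD or between the single KDs. Wrn, a helicase of the same family as Blm, read -1.76 and -1.73 with the control hairpin, -1.30 and -1.60 with Tip60 depleted, -1.40 and -1.55 with Hdac6 depleted and -1.20 and -1.27 with both depleted and was higher in double KD (0.52, SE 0.12, adjusted p = 0.0295). Every KD array of Wrn lay above the control arrays, with 0.30 (adjusted p = 0.121, 0.0364 with the block) in Tip60 KD. Rad51c, which acts with Xrcc3, read 1.62 and 1.27 (control KD), 1.24 and 1.21 (Tip60 KD), 1.18 and 0.89 (Hdac6 KD) and 0.85 and 1.01 (double KD) and was lower in double KD (-0.52, SE 0.16, adjusted p = 0.0610). The 2 control arrays of Rad51c differed by more than the control and Tip60 KD means did. Xrcc2, which also works with Rad51c, read -1.38 and -1.50 with the control hairpin, -1.58 and -1.89 with Tip60 depleted, -1.10 and -1.28 with Hdac6 depleted and -1.21 and -1.31 with both depleted. It gave -0.30 (adjusted p = 0.144, 0.0158 with the block) in Tip60 KD and 0.25 (adjusted p = 0.259, 0.0378 with the block) in Hdac6 KD, and Tip60 KD was lower than Hdac6 KD (-0.55, SE 0.13, adjusted p = 0.0417). Rad54l, a motor protein of recombination, gave 0.0052, 0.0033 and 0.0050 in Tip60, Hdac6 and double KD, with SE 0.17.

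**Figure D2:**
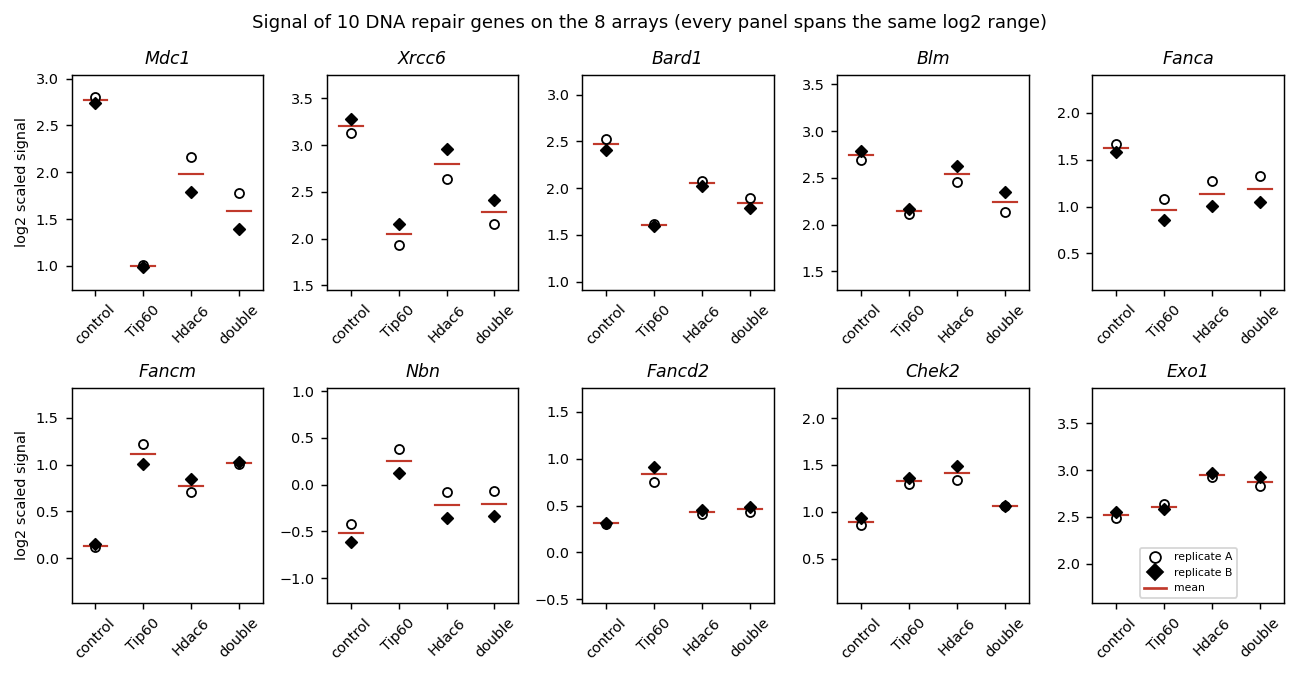
Log2 scaled signal of 10 repair genes on the 8 arrays, replicate A as open circles, replicate B as filled diamonds and the group mean as a line, with each panel spanning the same range. Mdc1, Xrcc6, Bard1, Blm and Fanca were highest in control KD, while Fancm, Nbn, Fancd2 and Chek2 were lowest there.

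The Fanconi genes, which repair crosslinks between DNA strands, held the largest rise. Fancm, the translocase that anchors the core complex on DNA, read 0.12 and 0.15 (control KD), 1.22 and 1.01 (Tip60 KD), 0.71 and 0.84 (Hdac6 KD) and 1.004 and 1.02 (double KD) (probe at chr12:66232171-66232230). The control arrays lay below all KD arrays, Hdac6 KD came next, and Tip60 and double KD overlapped. It rose by 0.98 ± 0.098 (SE, adjusted p = 0.00160) in Tip60 KD, a 1.98-fold higher level, by 0.64 ± 0.098 (SE, adjusted p = 0.00965) in Hdac6 KD and by 0.88 ± 0.098 (SE, adjusted p = 0.00347) in double KD. Fancm kept its call in each of the 3 KDs under all 17 other settings, which no other member did.

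Fanca, a core complex subunit, moved the other way from Fancm and read 1.67 and 1.58 with the control hairpin, 1.08 and 0.86 with Tip60 depleted, 1.27 and 1.001 with Hdac6 depleted and 1.33 and 1.05 with both depleted. The 3 KDs overlapped one another below the control. It was lower in Tip60 KD (-0.66, SE 0.15, adjusted p = 0.0193), Hdac6 KD (-0.49, SE 0.15, adjusted p = 0.0671) and double KD (-0.44, SE 0.15, adjusted p = 0.0836). Fancd2, the protein that the core complex ubiquitinates, read 0.30 and 0.32 (control KD), 0.76 and 0.91 (Tip60 KD), 0.41 and 0.45 (Hdac6 KD) and 0.43 and 0.49 (double KD). Tip60 KD stood clear of the other groups, at 0.52 ± 0.082 (SE, adjusted p = 0.00580) against control and 0.40 ± 0.082 (SE, adjusted p = 0.0251) against Hdac6 KD. Fanci, its partner, was not called, with -0.098 (adjusted p = 0.432).

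Fancc, another core subunit, read -1.15 and -1.02 with the control hairpin, -1.24 and -1.13 with Tip60 depleted, -1.32 and -1.46 with Hdac6 depleted and -1.34 and -1.40 with both depleted. It was lower in Hdac6 KD (-0.30, SE 0.094, adjusted p = 0.0711) and double KD (-0.28, SE 0.094, adjusted p = 0.0814), and Tip60 KD overlapped the control. These calls were kept in 6 and 4 of 17 other settings, and in 2 and 0 of the 8 fits that left out an array. A second Fancc probe close to the floor gave 0.088 in double KD (adjusted p over probes 0.823), and the average of both gave -0.096. Fancl, the ligase of the core complex, gave -0.10 (adjusted p = 0.536) in Tip60 KD and -0.29 (adjusted p = 0.118, 0.0229 with the block) in Hdac6 KD. Fancb gave 0.17 (adjusted p = 0.195) in Tip60 KD and 0.21 (adjusted p = 0.137, 0.0698 with the block) in Hdac6 KD.

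In end joining, a subunit of the Ku dimer was among the genes that fell most, and its partner was not called. Xrcc6, its smaller subunit (Ku70), read 3.13 and 3.28 with the control hairpin, 1.93 and 2.16 with Tip60 depleted, 2.64 and 2.96 with Hdac6 depleted and 2.15 and 2.41 with both depleted (probe at chr15:81870452-81870511). Control KD was highest and Hdac6 KD next, and Tip60 and double KD overlapped below. Xrcc6 fell to 44.8% of control in Tip60 KD (-1.16, SE 0.16, adjusted p = 0.00377) and to 52.7% in double KD (-0.92, SE 0.16, adjusted p = 0.0111), with -0.40 (adjusted p = 0.133, 0.00522 with the block) in Hdac6 KD. Xrcc5, the larger subunit (Ku80), read 3.39 and 3.34 (control KD), 3.30 and 3.20 (Tip60 KD), 3.45 and 3.33 (Hdac6 KD) and 3.40 and 3.13 (double KD). It was not called in any KD and gave -0.12 (adjusted p = 0.508) in Tip60 KD.

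Prkdc, the kinase that Ku holds at the break, read -0.13 and -0.15 with the control hairpin, 0.31 and 0.22 with Tip60 depleted, 0.18 and 0.19 with Hdac6 depleted and -0.00063 and 0.0010 with both depleted. Both single KDs lay above the control, and double KD lay between. It was higher in Tip60 KD (0.40, SE 0.070, adjusted p = 0.00833) and Hdac6 KD (0.33, SE 0.070, adjusted p = 0.0246), although the deposited values of the authors, which take 1 of its 10 spots, gave -0.043 and -0.10. Of Lig4 and Xrcc4, which together seal the ends, Xrcc4 gave -0.072 (adjusted p = 0.691) in Tip60 KD and -0.27 (adjusted p = 0.134, 0.0829 with the block) in double KD. Lig4 gave 0.37 (adjusted p = 0.142, 0.00707 with the block), 0.35 (adjusted p = 0.192, 0.0115 with the block) and 0.40 (adjusted p = 0.135, 0.00684 with the block) in Tip60, Hdac6 and double KD. Lig4 read higher on every KD array than on the control array of the same slide.

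Of the mismatch repair genes, Msh6, which recognises mispaired bases, was not called in any KD and read 4.96 and 4.91 (control KD), 5.07 and 4.88 (Tip60 KD), 5.03 and 4.78 (Hdac6 KD) and 5.17 and 4.89 (double KD). Exo1, the exonuclease that removes the mispaired strand and also resects breaks, read 2.49 and 2.55 with the control hairpin, 2.64 and 2.58 with Tip60 depleted, 2.92 and 2.97 with Hdac6 depleted and 2.83 and 2.92 with both depleted. Hdac6 and double KD lay above the other groups, at 0.42 ± 0.075 (SE, adjusted p = 0.0146) and 0.35 ± 0.075 (SE, adjusted p = 0.0213), while Tip60 KD gave 0.084 (adjusted p = 0.475). The difference between Tip60 and Hdac6 KD was itself called (-0.34, SE 0.075, adjusted p = 0.0332).

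Among the genes for single-strand breaks and base excision, Parp1, the main poly-ADP-ribose polymerase at DNA breaks, was higher in all 3 KDs. It read 4.70 and 4.67 (control KD), 5.12 and 5.04 (Tip60 KD), 5.04 and 4.96 (Hdac6 KD) and 5.11 and 4.92 (double KD), with every KD array above both controls. The changes were 0.40 ± 0.091 (SE, adjusted p = 0.0210), 0.32 ± 0.091 (SE, adjusted p = 0.0572) and 0.33 ± 0.091 (SE, adjusted p = 0.0465) in Tip60, Hdac6 and double KD. Its relative Parp2 read 1.93 and 1.73 with the control hairpin, 2.07 and 2.17 with Tip60 depleted, 1.82 and 1.79 with Hdac6 depleted and 1.50 and 1.54 with both depleted. Parp2, which shares its reaction, was higher in Tip60 KD (0.29, SE 0.092, adjusted p = 0.0616) and lower in double KD (-0.31, SE 0.092, adjusted p = 0.0586), the one member called in opposite directions without the block. With the block Rnf168 and Xrcc2 were too. The Parp2 calls were kept in 11 and 9 of 17 other settings, and in 3 and 5 of the 8 fits that left out an array. Ung, which cuts uracil out of DNA, read 1.61 and 1.31 (control KD), 0.96 and 0.98 (Tip60 KD), 1.09 and 0.96 (Hdac6 KD) and 0.75 and 1.01 (double KD). All KD arrays lay below both control arrays, and the changes were -0.49 ± 0.14 (SE, adjusted p = 0.0420), -0.44 ± 0.14 (SE, adjusted p = 0.0763) and -0.59 ± 0.14 (SE, adjusted p = 0.0300). Xrcc1 and Lig3, which seal single-strand breaks together, gave -0.073 (adjusted p = 0.771) and -0.29 (adjusted p = 0.218, 0.0312 with the block) in Tip60 KD.

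In Hdac6 KD 11 of the 42 were called (6 higher and 5 lower), which is 26.2% beside 30.0% of all genes (14.0% higher and 16.0% lower). Their median change was 0.011. In double KD 13 were called (4 higher and 9 lower), which is 31.0% beside 33.7% of all genes (16.0% higher and 17.7% lower), with a median of -0.022. With the replicate block the counts were 26 and 27 members, beside 52.9% and 55.4% of all genes. Hdac6 and Tip60 KD therefore have no settled order by their count of called members. The Hdac6 KD count was below that of Tip60 KD without the block (11 and 16). It was above it with the block (26 and 25) and at an unadjusted limma p under 0.05 (17 and 16). Over all 17977 genes the Hdac6 KD count was the lower one each time. Those counts were 5389 and 7265 without the block, 9507 and 10850 with it, and 6261 and 7619 at the unadjusted p. The 15 that the block added in Hdac6 KD were Trp53bp1, Rnf8, Rnf168, Brca1, Nbn, Wrn, Xrcc2, Fancb and Lig4, which were higher, and Palb2, Rad51c, Rad51ap1, Blm, Fancl and Xrcc6, which were lower. The 14 it added in double KD were Atm, Chek2, Rnf8, Brca2, Nbn, Xrcc2, Fancb, Fancd2, Prkdc and Lig4, higher, and Rbbp8, Xrcc3, Fancl and Xrcc4, lower. The added changes were 0.14 to 0.41 in size in Hdac6 KD and 0.14 to 0.40 in double KD. The Hdac6 KD count fell to 3 without the Hdac6 KD B array, to 6 without control KD A and to 7 without control KD B or Hdac6 KD A. The double KD count fell to 7 without control KD A or double KD A and to 8 without control KD B. Besides Atm, Fancc and Parp2, the calls of Fanca, Ung and Parp1 in Hdac6 KD were kept in 9, 10 and 11 of 17 other settings, and those of Fanca and Rad51c in double KD in 7 and 10. Calls over all genes in the fits that left out an array are not given here. The falls in those fits are thus not read as particular to the members. The 3 comparisons share the control arrays, so their overlaps are given as counts and nothing more. Fancm and Parp1 were called higher in all 3, and Bard1, Fanca, Mdc1 and Ung lower in all 3. Of the 42, 21 were called in none (9 with the block), and 12 changed by under 0.2 in every KD. The shares of all genes called in all 3, called in none or changed this little were not counted. These numbers are thus not read as traits of the members.

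Tip60 KD and Hdac6 KD were also compared with each other, a difference that the control arrays enter only through the shared spread. Of the members, 12 were called, 4 higher and 8 lower in Tip60 KD, beside 24.0% of all genes (12.1% higher and 11.9% lower). Mdc1 (-0.98, SE 0.17, adjusted p = 0.0154) and Xrcc6 (-0.76, SE 0.16, adjusted p = 0.0277) differed most. Bard1, Blm and Xrcc3 were also lower in Tip60 KD, with log2 differences of -0.45, -0.40 and -0.43. In the other direction stood Fancd2, Fancm (0.34, SE 0.098, adjusted p = 0.0697), Parp2 (0.31, SE 0.092, adjusted p = 0.0737) and Palb2. The count fell to 2 without Hdac6 KD A, 4 without Tip60 KD B, 5 without Hdac6 KD B and 6 without Tip60 KD A, and Mdc1 kept its call in all 17 other settings. Fancm kept its call in 8 of them and Blm, Palb2 and Parp2 in 9, and with the block Rnf8, Nbn, Rad51ap1 and Lig3 were called as well.

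Against Tip60 KD, double KD differed in 2 members, both lower: Parp2 (-0.60, SE 0.092, adjusted p = 0.0657) and Fancd2 (-0.38, SE 0.082, adjusted p = 0.0995). The background was 4.07% of all genes (1.45% higher and 2.62% lower). Leaving out any of the 8 arrays ended both calls, and 15 members were called with the replicate block, beside 26.6% of all genes. Mdc1 gave 0.59 (adjusted p = 0.155, 0.0264 with the block) and Bard1 0.24 (adjusted p = 0.214, 0.0436 with the block) in this comparison.

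Additivity was tested as the double KD change minus the sum of the single KD changes. It was called for 10 members, 4 higher and 6 lower, beside 23.1% of all genes (12.4% higher and 10.7% lower), and for 18 with the replicate block, beside 47.0%. For Mdc1 the term was 1.38 ± 0.24 (SE, adjusted p = 0.0193), the double KD change of -1.18 being smaller than either the sum or the Tip60 KD change alone. Fanca (0.71, SE 0.21, adjusted p = 0.0755) and Bard1 (0.65, SE 0.12, adjusted p = 0.0212) were next among those less lowered than the sum, with Rad51ap1. Among those less raised than the sum, Chek2 (-0.79, SE 0.12, adjusted p = 0.0140), Nbn (-0.75, SE 0.23, adjusted p = 0.0824) and Fancm (-0.75, SE 0.14, adjusted p = 0.0237) had the largest terms, followed by Prkdc and Fancd2. Parp2 (-0.57, SE 0.13, adjusted p = 0.0397) was below control in double KD although the sum of its single changes was above it. The control arrays enter this term with the opposite sign to each single change, and Hdac6 mRNA was less reduced by both hairpins together than by its own hairpin alone (the percentages given above). The part of either in these terms was not tested. Without control KD B, Tip60 KD B, Hdac6 KD A or double KD A 6 members were called, and without Hdac6 KD B 5. Chek2, Mdc1 and Fancm kept the call in all 16 other settings, and Bard1 and Prkdc in 15. Nbn kept it in 3 of them, Fanca in 6, Rad51ap1 in 7, Fancd2 in 11 and Parp2 in 12. With the block Blm, Xrcc3 and Xrcc6 (higher) and Atm, Trp53bp1, Brca1, Lig4 and Parp1 (lower) were called as well.

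**Figure D3:**
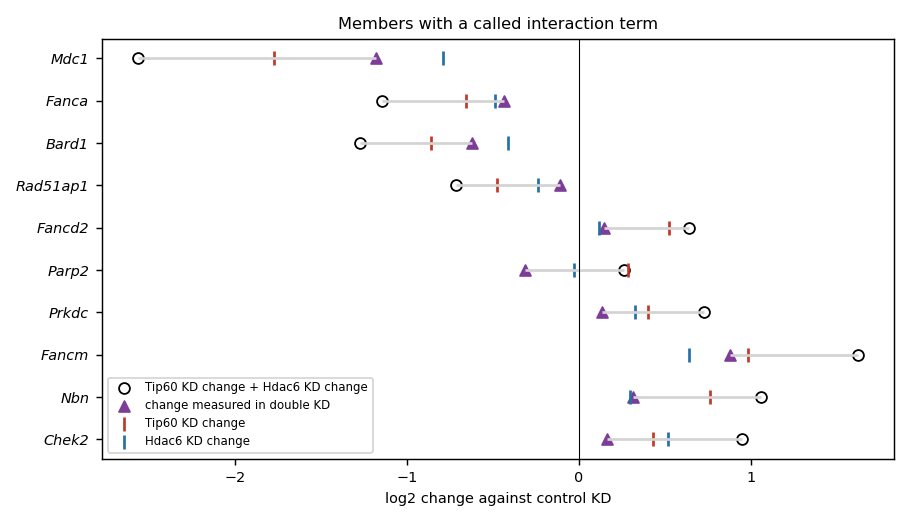
Log2 change against control KD of the 10 members with a called interaction term: the sum of the single KD changes (open circles), the change measured in double KD (triangles) and the single changes (ticks, red Tip60 KD, blue Hdac6 KD). In every member but Parp2 the triangle lay between the sum and 0, and for Parp2 it lay on the other side of 0.

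Several probes measured 13 of the members, and 52 of the 56 probes passed the filter. Of the members called in Tip60 KD, Bard1 was the one with several such probes. Its probe at chr1:71074294-71074353 gave -0.86, a second one 608 bases away gave -0.30 (adjusted p over probes 0.204), and another, dim one 19923 bases away gave 0.82 (adjusted p over probes 0.0326). This dim probe read -2.45 and -2.78 in control KD, the latter at the floor of -2.78 below which no level was read, and -1.58 and -2.00 in Tip60 KD. The 2 probes nearest each other thus went the same way and the distant one the other. Fancl and Lig3 likewise had second probes that were higher in Tip60 KD (0.44 and 0.56, adjusted p over probes 0.0166 and 0.0288) where the brightest was not called without the block. The second Atm probe, given above, and its brightest went the same way. A second Atr probe was at the floor on both Tip60 KD arrays, both Hdac6 KD arrays and double KD A. It gave -0.74, -0.74 and -0.54 in Tip60, Hdac6 and double KD (adjusted p over probes 0.0167, 0.0247 and 0.0575). The brightest Atr probe gave -0.047, -0.075 and -0.027. Whether these probes read different transcript forms was not tested, and their exon and UTR annotation was not used here.

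**Figure D4:**
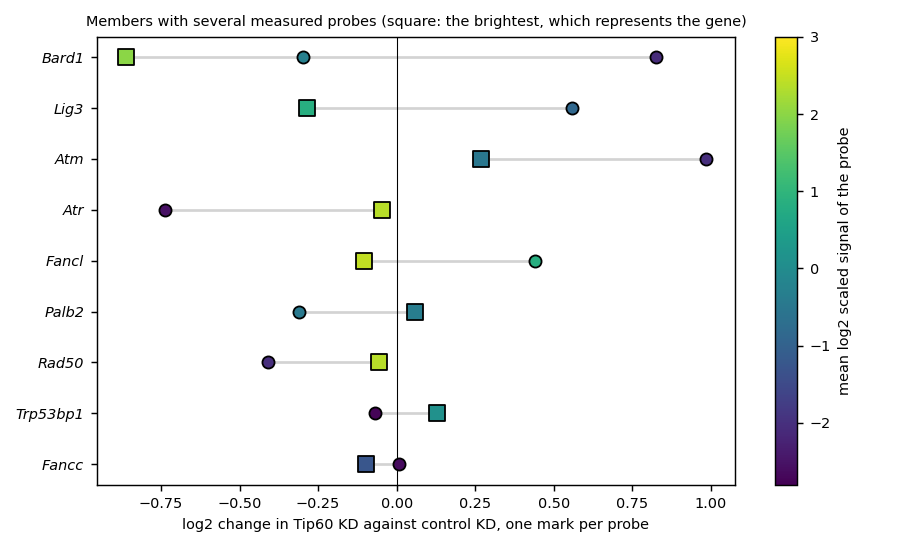
Log2 change in Tip60 KD of each measured probe for the 9 members with several, coloured by the probe's mean log2 scaled signal, with squares for the probe that stands for the gene. The marks of Bard1, Lig3, Fancl, Palb2, Trp53bp1 and Fancc lie on both sides of 0, and the marks furthest from their squares are the dimmest ones of Bard1, Lig3, Atm and Atr.

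A list of 51 other repair genes, of which 45 were measured, gives the wider setting. In Tip60 KD 24 were called, 12 higher and 12 lower, which is 53.3% beside 40.4% of all genes, with a median of 0.031. Ube2t, the ubiquitin-conjugating enzyme that serves Fancl, was lowest (-1.01, SE 0.11, adjusted p = 0.00199). Tdp1, which removes stalled topoisomerase from DNA, and Rad54b, a relative of Rad54l, were next (-0.72 and -0.65). Apex1, the main base excision endonuclease, rose by 0.94 ± 0.13 (SE, adjusted p = 0.00359), followed by Gen1, which resolves recombination junctions (0.91), and Mlh3, a mismatch repair protein (0.67). In Hdac6 KD 14 of the list were called (7 higher and 7 lower), 31.1% beside 30.0% of all genes. In double KD 17 were called (9 higher and 8 lower), 37.8% beside 33.7%, Ube2t being lowest and Gen1 highest in both. Of the 19 S phase genes tested 9 were called in Tip60 KD, 3 higher and 6 lower, 47.4% beside 40.4%.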

How the data were processed

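The authors hybridised Cy3-labelled RNA to Agilent 4X44K mouse arrays and extracted spot signals with Feature Extraction 10.7.1.1. The deposited values are spot intensities, and gProcessedSignal, which is already background-subtracted per the file headers, was used. The authors also deposited a table of log2 signals with 1 spot a probe, used here as an alternative, whose rank correlation with the raw median spot signals was at least 0.9995 on each array. Its array medians were 8.19 to 8.20, genes were not centred, and the method that aligned the arrays is not given in the sources used here.

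Control spots and outlier spots were left out, spots of a probe averaged, and signals divided by the array's 75th percentile, raised to a common floor of 0.145 of it (-2.78 in log2) and put on a log2 scale. Probes had to exceed both background and the floor on 2 or more of the 8 arrays, and the probe of highest mean signal stood for a gene. limma 3.58.1 in R 4.3.3 fitted all 4 groups together, with tests 2-sided and Benjamini-Hochberg adjusted over 17977 genes, called under 0.1. Scripts were tested on simulated data. Promoters and motifs were read in Python 3.11.15 and plots drawn with matplotlib 3.10.9. The number of arrays limits the precision, and with 2 a group the shared spread rests on 4 residual and 1.81 prior degrees of freedom.

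The deviations of same-lettered arrays from their group means correlated across genes at 0.650 to 0.798 in the 6 pairs of groups, and the letter is also the slide, so a fit with the letter as a replicate block was run. Other alternatives left out each array, or changed the background correction, scaling, floor, probe filter, probe choice, threshold or arrays fitted. The members, gene lists and tests were chosen with earlier results of these data known. Named were the called members that moved most (up to 3 each way), those past 2-fold, Kat5, Hdac6 and up to 3 other repair genes each way; the remaining members are given for completeness.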

Additional observations from a re-analysis of the deposited data

Results flagged for a closer look

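For 10 members the change after the Hdac6 hairpin differed between Tip60-depleted and Tip60-intact ESCs, as tested by limma's interaction term (double KD minus the sum of the single KDs, log2 scale). These are 23.8% of the members, near the 23.1% of all genes with a called term. The term was positive for Mdc1 (1.38), Fanca (0.71), Bard1 (0.65) and Rad51ap1 (0.60), with adjusted p from 0.0193 to 0.0773. It was negative for Chek2 (-0.79), Nbn (-0.75), Fancm (-0.75), Prkdc (-0.59), Parp2 (-0.57) and Fancd2 (-0.49), with adjusted p from 0.0140 to 0.0824. Mdc1, Fanca, Bard1 and Rad51ap1 were below control in the single KDs, and the terms of the other members followed a higher level in at least Tip60 KD. For Bard1 the term was -0.065 when its probes were averaged. Of the 8 fits that left out an array, the call was kept in 0 for Nbn, 1 for Rad51ap1, 2 for Fanca, 3 for Fancd2 and 4 for Parp2, and in all 8 for Mdc1, Bard1, Chek2, Fancm and Prkdc.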

How the results depend on the processing

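In Tip60 KD the count of called members was 14 to 15 with any array left out, and 10 of the 16 calls (Chek2, Mdc1, Nbn, Blm, Xrcc3, Fanca, Fancd2, Fancm, Xrcc6 and Parp1) were kept in all 17 alternatives. The replicate block gave 25 calls in Tip60 KD, 26 in Hdac6 KD, 27 in double KD, 15 for double against Tip60 KD and 18 for the interaction. Leaving out 1 array gave 3 to 11 calls in Hdac6 KD, 7 to 12 in double KD, 2 to 10 for Tip60 against Hdac6 KD, 5 to 9 for the interaction and 0 for double against Tip60 KD (limma, with 5 to 11 members at an unadjusted p under 0.05). Fitting only the arrays compared gave 7 in Hdac6 KD, 7 in double KD, 3 for Tip60 against Hdac6 KD and 0 for double against Tip60 KD (8 members at an unadjusted p under 0.05). With an adjusted p under 0.05, 6 were called in Hdac6 KD and 0 for double against Tip60 KD. Without the filter on dim probes 7 were called for Tip60 against Hdac6 KD. For double against Tip60 KD normexp gave 0 (11 members at an unadjusted p under 0.05), and 1 was called with one background rule on every array, quantile normalization, the series matrix or a low floor. Kept in all alternatives were 3 calls in Hdac6 KD (Chek2, Fancm, Exo1), 4 in double KD (Mdc1, Fancm, Xrcc6, Exo1) and 1 for Tip60 against Hdac6 KD (Mdc1). With the series matrix Prkdc turned to -0.043 in Tip60 KD and -0.10 in Hdac6 KD: its spot there read 1727 on control KD B, where the other 9 read 1082 to 1165, and was an outlier spot. With its probes averaged Bard1 turned to 0.052 in Hdac6 KD and -0.065 for the interaction, and Lig3 to 0.32 in Hdac6 KD, since their probes disagree. Besides those with the block, calls over all genes in these alternatives are not given here. A shift in a count is thus not read as particular to the members. The cause of the remaining shifts was not tested. With 2 arrays a group, a member that was not called may still differ.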
